A study of Mus musculus with 24 samples.

Results

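The vehicle arm of a mouse leukemia treatment study was described here on its own: 3 of 12 specimens of bone marrow mononuclear cells, which are 6 of the 24 listed samples because every specimen was listed as 2 samples and deposited as 1 column of counts. Its members are the count columns whose leading number is 1, 2 or 3, and they are called vehicle replicates 1, 2 and 3. All 12 specimens came from mice carrying Shp2 E76K, so the study has no marrow with normal Shp2 beside it. The vehicle mice got the carrier without a drug for 3 weeks. The other 9 specimens, numbered 4 to 12, came from mice given ACP196, which blocks the kinase BTK (Bruton's tyrosine kinase; specimens 4 to 6), ACP319, which blocks the p110δ catalytic subunit of PI3K (phosphoinositide 3-kinase; specimens 7 to 9), or both drugs (combination, specimens 10 to 12), also for 3 weeks. The labels give neither the promoter or Cre line behind the mutation nor the age or sex of the mice. They also do not say that each specimen is a separate mouse, so the spread between replicates may be partly technical.

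Shp2, the product of Ptpn11, is a tyrosine phosphatase that carries signals from cytokine receptors to RAS and the ERK kinases. The E76K substitution loosens the contact that normally holds the enzyme closed, and changes of this kind are found in juvenile myelomonocytic leukemia. In mice they lead to an excess of granulocytes and monocytes, so the make-up of the untreated marrow is the baseline against which a drug is read.

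RNA was amplified as full-length cDNA from small input and sequenced. Total counts were 20522801, 22154833 and 20731258 in vehicle replicates 1, 2 and 3, against 8993950 to 21944506 in the treated specimens. The table held 24421 genes, and 15058, 15019 and 15248 of them had at least 1 count in the vehicle replicates. Levels of different genes are given below as TPM (transcripts per 1000000), computed from the counts and the deposited gene lengths. The spread of a gene between replicates, the test, and the counts of genes highest or lowest in a replicate rest on CPM (counts per 1000000, scaled between libraries). The scales can order the replicates differently: Btk had 69.3, 70.2 and 66.3 TPM but 108, 88.5 and 104 CPM in vehicle replicates 1, 2 and 3. Of the 23130 genes at least 200 bases long, 10634 had 1 TPM or more in all 3 vehicle replicates, 957 had 100 or more and 102 had 1000 or more. No count was listed in vehicle for 8157 of the 24421 genes. Mitochondrially encoded genes are not analysed here.

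The vehicle replicates were not equally alike. Across 12742 genes the Spearman correlation of log2 CPM was 0.987 between replicates 1 and 3, 0.970 between replicates 1 and 2, and 0.970 between replicates 2 and 3, as a description over genes of libraries made alike. All 3 pairs differed by more than counting noise, with a chi-square per degree of freedom of 30.3 for replicates 1 and 3, 118 for replicates 1 and 2, and 132 for replicates 2 and 3. Replicate 2 therefore stood apart, and it did so along gene length. The rise of expression with each doubling of gene length, on the log2 scale and relative to the mean of the 12 specimens, was 0.15, 0.40 and 0.12 in vehicle replicates 1, 2 and 3, against -0.38 to 0.29 in the treated specimens. Among 8372 genes with a vehicle mean of at least 10 CPM, the shortest 10% (median length 876 bases) had median deviations from the vehicle mean of 0.14, -0.37 and 0.24 log2 CPM in replicates 1, 2 and 3. The longest 10% (median length 7929 bases) had -0.10, 0.35 and -0.21. Short genes were thus low and long genes high in replicate 2.

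**Figure D1:**
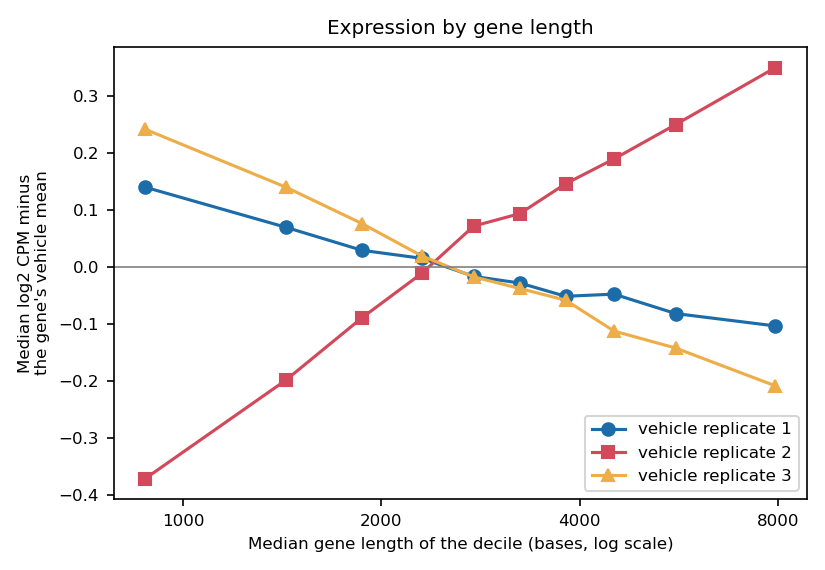
Median log2 CPM minus each gene's vehicle mean (y axis) in 10 equal groups of 8372 genes ordered by length (x axis, bases, log scale), 1 line per vehicle replicate. The line of replicate 2 goes up from -0.37 in the shortest group to 0.35 in the longest, while those of replicates 1 and 3 go down.

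The transcriptome was dominated by genes listed here as neutrophil markers, and above all by S100a9 and S100a8. These encode the subunits of calprotectin, a calcium- and metal-binding protein stored in the neutrophil cytosol. Whether their transcripts came from neutrophils alone or also from other myeloid cells was not tested. S100a9 stood at 113241, 74217 and 109894 TPM in vehicle replicates 1, 2 and 3, and at 66892 to 134443 TPM in the treated specimens. S100a8 stood at 102330, 74536 and 110837 TPM in vehicle, and at 50235 to 132671 TPM in the treated specimens. Both were lowest in replicate 2 among the vehicle specimens, and for both the vehicle values lay inside the treated range. Together they held 19.5 ± 4.02% of all vehicle TPM (SD, n = 3), and no more than 104 genes held 50% of it. Both transcripts are short (524 and 392 bases) and their share depends on how length is counted. It was 26.1% when 200 bases were taken off every length and 5.79% as a share of the raw counts.

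These genes lie close together on chromosome 3, and their RefSeq promoters (250 bases before to 50 after the start site, build GRCm38.p6) are shown because they belong to the most abundant transcripts of this marrow. Capitals mark a match to the C/EBP motif TTGCNNAA, searched on both strands; C/EBP proteins are transcription factors of granulocyte development.
S100a9, chr3:90695672-90695971, minus strand: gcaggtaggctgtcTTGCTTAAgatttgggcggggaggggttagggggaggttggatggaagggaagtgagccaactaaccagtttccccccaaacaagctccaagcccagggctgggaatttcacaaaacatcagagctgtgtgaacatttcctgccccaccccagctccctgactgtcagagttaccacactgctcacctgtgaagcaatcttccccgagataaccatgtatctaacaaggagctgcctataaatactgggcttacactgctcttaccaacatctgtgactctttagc
S100a8, chr3:90668821-90669120, plus strand: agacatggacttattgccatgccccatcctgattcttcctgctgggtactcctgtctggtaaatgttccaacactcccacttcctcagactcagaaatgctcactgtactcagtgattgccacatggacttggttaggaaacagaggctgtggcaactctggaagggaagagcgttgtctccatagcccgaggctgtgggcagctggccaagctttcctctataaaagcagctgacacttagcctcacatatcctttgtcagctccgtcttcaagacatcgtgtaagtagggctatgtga
The S100a9 window held 1 match, which begins at position -236 from the start site, and the S100a8 window held none. The motif was found in 7 of the 21 promoters on hand for the 25 most abundant genes and in 12.2% of the promoters of 27025 genes. Of the genes listed here as mature neutrophil markers, 14 had a promoter on hand and 2 of these (14.3%) held a match, near the share of all genes.

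The next ranks belonged to the granule proteins of the maturing neutrophil. Ngp, a cathelicidin-related granule protein, had 25202, 36948 and 20790 TPM in vehicle replicates 1, 2 and 3, with 4767 to 21997 TPM in the treated specimens. Camp, the antimicrobial cathelicidin, had 27986, 16352 and 27412 TPM in vehicle, and 16550 to 80087 TPM in the treated specimens. Lcn2, which encodes the iron-siderophore-binding lipocalin 2, had 9189, 14152 and 8468 TPM in vehicle, all above the treated range of 2355 to 7479 TPM, though its log2 CPM difference did not pass the test (0.43 ± 0.28 SE, edgeR quasi-likelihood, Benjamini-Hochberg adjusted p = 0.338). Thus Ngp and Lcn2 were highest and Camp was lowest in replicate 2, although all 3 belong to the same granule set. Lyz2 (lysozyme) averaged 9490 ± 2493 TPM, Retnlg (a resistin-like secreted protein) 9151 ± 951 TPM, Ltf (lactoferrin) 6819 ± 2288 TPM and Chil3 (a chitinase-like lectin of myeloid cells) 4972 ± 591 TPM in vehicle (SD, n = 3 each).

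Genes used by most cells filled much of the rest of the top 25: the actin-binding Tmsb4x (13138 ± 3239 TPM) and Pfn1, the elongation factor Eef1a1 (7256 ± 303 TPM), Actb, Tpt1, B2m of the class I complex and the ribosomal protein genes Rps9, Rps12, Rpl32 and Rpl41. Genes of blood cells in the list were also Arhgdib (a GTPase regulator), Anxa1 (annexin A1), Ifitm6, Tyrobp (a signalling adaptor of myeloid receptors), Mpo (myeloperoxidase) and the eosinophil granule gene Prg2. Eef1a1 varied little, whereas Prg2 had 5660, 4383 and 2280 TPM and Mpo 2708, 3884 and 1607 TPM in vehicle replicates 1, 2 and 3, both lowest in replicate 3. The 84 cytoplasmic ribosomal protein genes held 11.8 ± 1.16% of vehicle TPM (SD, n = 3), and 20 of them were among the 50 most abundant genes. The 10 most abundant genes held 32.7, 25.8 and 32.4% of TPM in vehicle replicates 1, 2 and 3, against 22.7 to 38.9% in the treated specimens, so replicate 2 had the flattest vehicle profile and the ranges overlapped.

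**Figure D2:**
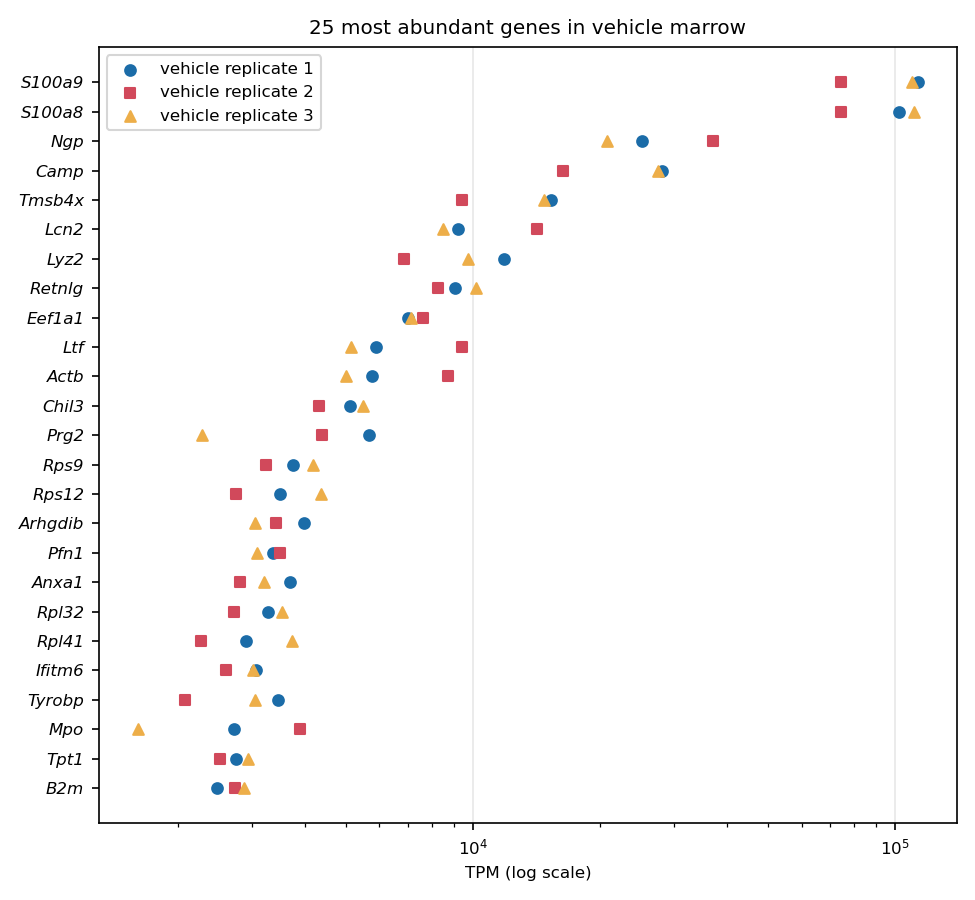
TPM (x axis, log scale) of the 25 genes with the highest mean in vehicle, 1 symbol per vehicle replicate. S100a9 and S100a8 lie far to the right of the rest, and replicate 2 is the lowest for both.

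Lineage make-up was read from summed TPM of marker lists. In bulk RNA, fewer cells of a type and less RNA per cell cannot be told apart, and some markers are shared between lists (Nkg7 between primary granules and NK cells, H2-Ab1 between B and dendritic cells, Kit and Gata2 between mast cells and progenitors). The label says mononuclear cells, but the mature neutrophil list led, with 230247, 161686 and 236657 TPM in vehicle replicates 1, 2 and 3, and 155168 to 283903 TPM in the treated specimens. Without S100a8 and S100a9 the mature neutrophil sum was 14676, 12934 and 15925 TPM in vehicle, and 10438 to 16789 TPM in the treated specimens. The secondary and tertiary granule list followed with 98047, 101935 and 88138 TPM in vehicle, and 60071 to 99418 TPM in the treated specimens. These granule genes are transcribed mainly in myelocytes and metamyelocytes, before neutrophils mature. The primary granule list, made of promyelocyte genes, summed to 11460, 10505 and 7347 TPM in vehicle, and to 3629 to 8618 TPM in the treated specimens. Of these 3 lists the one of the most mature cells had the highest sum and the one of the least mature cells the lowest, but this order rests on S100a8 and S100a9: without them the mature sum lay far below that of the secondary and tertiary granule list. The lists hold different genes, and their sums are not shares of cells.

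Among the primary granule genes, which encode the enzymes of the first granules, Elane (neutrophil elastase) had 3340, 2507 and 1944 TPM in vehicle replicates 1, 2 and 3, and Prtn3 (proteinase 3) had 1771, 1425 and 1144 TPM. Ctsg (cathepsin G) followed at 1159, 844 and 708 TPM and Srgn (serglycin, the granule proteoglycan) at 1375, 974 and 1237 TPM. For 8 of the 9 genes of this list log2 CPM was highest in replicate 1, and the exception was Mpo; over all 12742 genes, 25.9% were highest in that replicate. Of the mature list, 14 of 16 genes were lowest in replicate 2, against 40.6% of all genes. So were 28 of 33 cytoplasmic ribosomal protein genes and 19 of 25 nuclear genes of oxidative phosphorylation. Short genes were low in replicate 2, and the part of gene length in these counts was not tested. The mature list's members Csf3r (the receptor of granulocyte colony-stimulating factor) at 307, 264 and 230 TPM and Cxcr2 (the chemokine receptor for release from marrow) at 224, 309 and 225 TPM were far below S100a8 and S100a9 per length.

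Monocyte genes followed the granulocyte lists at 4100, 3946 and 3542 TPM in vehicle replicates 1, 2 and 3, all above the treated range of 1003 to 3354 TPM. Ly6c2, which marks classical monocytes and is also present in other marrow cells, made up much of the sum with 2050, 1974 and 1605 TPM. Ccr2, the receptor that draws classical monocytes out of the marrow, was steady at 146, 148 and 142 TPM, and Csf1r, the receptor of macrophage colony-stimulating factor, had 75.4, 112 and 70.9 TPM. The nonclassical markers were lower, with Cx3cr1 at 26.6, 25.1 and 24.0 TPM, Treml4 at 18.5, 9.09 and 21.8 TPM and Ace at 6.4, 5.91 and 7.97 TPM. Macrophage genes summed to 1010, 697 and 809 TPM, but not all of them went the same way: the complement gene C1qb had 220, 64.9 and 169 TPM, whereas the adhesion gene Vcam1 had 64.1, 95.6 and 45.7 TPM, and 7 of 14 genes were lowest in replicate 2 by log2 CPM (40.6% of all genes). Dendritic cell genes summed to 550, 436 and 548 TPM, of which H2-Ab1 held 379, 222 and 375 TPM, while Siglech of plasmacytoid cells had 15.3, 36.3 and 12.3 TPM and Xcr1 of conventional cells stayed under 1 TPM in every replicate.

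Eosinophil, basophil and mast cell genes summed to 8475, 7763 and 4015 TPM in vehicle replicates 1, 2 and 3, and 5640 to 10424 TPM in the treated specimens. Vehicle replicate 3 was the lowest of all 12. Beside Prg2, the basophil proteases Mcpt8 (895, 777 and 561 TPM) and Prss34 (673, 843 and 486 TPM) were abundant in vehicle, and Epx, the eosinophil peroxidase, had 245, 544 and 74.2 TPM. The connective tissue mast cell protease Cma1 had 0.135 TPM in replicate 1 and was listed at 0 in replicates 2 and 3.

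Lymphoid, progenitor and structural lists were smaller than those of the granulocytes and monocytes. Mature B cell genes summed to 1745, 1546 and 1744 TPM in vehicle, but most of that came from class II genes and Cd74, which other cells use too, and the B cell antigen gene Ms4a1 (CD20) had only 5.64, 6.23 and 5.86 TPM. Plasma cell genes summed to 226, 605 and 366 TPM, led by Jchain at 95.6, 431 and 227 TPM. T cell genes summed to 157, 134 and 238 TPM, with Cd3d alone at 90.5, 62.4 and 176 TPM while its partner Cd3e had 6.01, 4.87 and 6.30 TPM. NK cell genes summed to 323, 270 and 248 TPM, of which the shared gene Nkg7 held 258, 205 and 158 TPM, and Klra8 was listed at 0 in all 3. Megakaryocyte genes summed to 208, 233 and 182 TPM and were led by Pf4 (platelet factor 4). Stem and progenitor genes summed to 188, 286 and 174 TPM, with Myb at 71.0, 103 and 64.0 TPM and Cd34 at 21.6, 34.9 and 19.7 TPM, while 4 of the 17, Mecom, Mycn, Procr and Slamf1, were under 1 TPM in all 3. From dendritic cells down to T cells, neighbouring lists did not differ by more than both SDs, nor did the primary granule and eosinophil lists or the red cell and mature B cell lists, so no order is given within these. Stroma, endothelium and bone genes (51.4, 72.8 and 50.3 TPM) and muscle and fat genes (82.9, 45.7 and 68.2 TPM) came last, with Myh1 and Myh4 listed at 0.

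**Figure D3:**
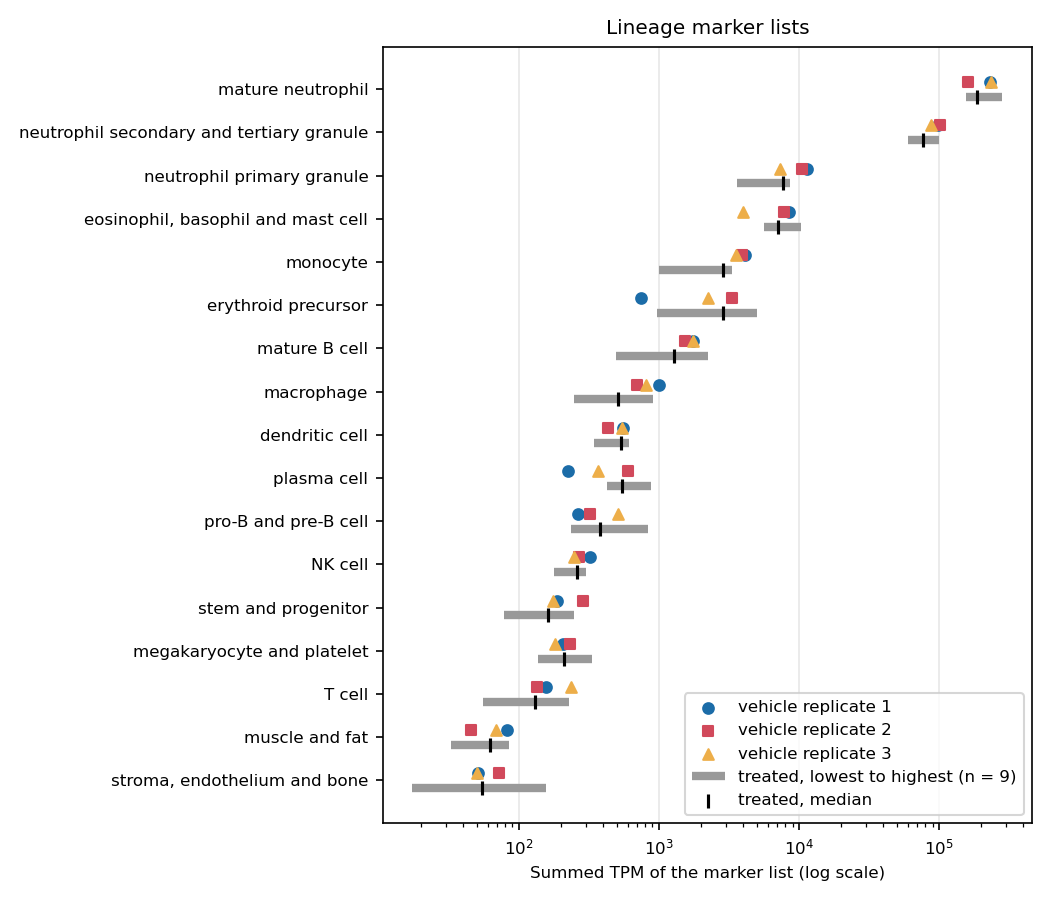
Summed TPM (x axis, log scale) of 17 marker lists, with the 3 vehicle replicates as symbols above a grey bar that spans the 9 treated specimens and a black tick at their median. Neutrophil lists lead, the erythroid sum of vehicle replicate 1 lies left of every treated specimen, and the 3 monocyte sums lie right of the grey bar.

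Early B cell genes were higher in 1 vehicle specimen. The pro-B and pre-B list summed to 263, 323 and 512 TPM in vehicle replicates 1, 2 and 3, within the treated range of 237 to 836 TPM, and 16 of its 18 genes were highest in replicate 3, against 31.2% of all genes. Vpreb1, a part of the surrogate light chain of the pre-B receptor, had 11.7, 6.96 and 40.4 TPM, and its partner Igll1 had 17.1, 12.6 and 57.8 TPM. Cd79b, the signalling chain of the B cell receptor, moved less, at 48.5, 53.9 and 75.4 TPM. The 2 genes of the list that were highest in replicate 2 instead, Erg and Sox4, encode transcription factors that other progenitors use too.

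Red cell precursors varied most of the larger lists. Their genes summed to 747, 3301 and 2248 TPM in vehicle replicates 1, 2 and 3, a 4.42-fold range, and to 974 to 5032 TPM in the treated specimens. All 18 genes of the list were lowest in replicate 1, against 28.4% of all genes, and 15 were highest in replicate 2. Slc4a1, the anion exchanger of the red cell membrane, had 130, 879 and 309 CPM, and Alas2, the first enzyme of heme synthesis in red cells, had 55.4, 380 and 235 CPM. Klf1 and Gata1, transcription factors of the lineage, had 23.9, 108 and 69.1 TPM and 22.7, 62.9 and 46.8 TPM. The beta spectrin gene Sptb and the adaptor ankyrin gene Ank1, which are long genes, had their highest values in replicate 2 and their lowest in replicate 1 (Sptb at 36.5, 263 and 95.6 CPM). Without Car1 and Car2, the list's carbonic anhydrases, the sums were 370, 1892 and 994 TPM in vehicle. Of 13 heme synthesis genes, Alas2 included, 11 were lowest in replicate 1.

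RefSeq promoters of Alas2 and Sptb are shown because they belong to the red cell genes among the 25 most variable in vehicle. Capitals mark matches to the GATA motif (A or T, then GATA, then A or G, on either strand), the sequence that GATA1 binds.
Alas2, chrX:150547167-150547466, plus strand: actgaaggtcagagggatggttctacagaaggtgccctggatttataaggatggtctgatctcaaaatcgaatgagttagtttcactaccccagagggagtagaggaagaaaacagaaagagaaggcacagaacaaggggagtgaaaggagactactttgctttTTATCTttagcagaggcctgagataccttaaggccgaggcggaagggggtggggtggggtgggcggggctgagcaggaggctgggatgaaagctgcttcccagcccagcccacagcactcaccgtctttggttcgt
Sptb, chr12:76710498-76710797, minus strand: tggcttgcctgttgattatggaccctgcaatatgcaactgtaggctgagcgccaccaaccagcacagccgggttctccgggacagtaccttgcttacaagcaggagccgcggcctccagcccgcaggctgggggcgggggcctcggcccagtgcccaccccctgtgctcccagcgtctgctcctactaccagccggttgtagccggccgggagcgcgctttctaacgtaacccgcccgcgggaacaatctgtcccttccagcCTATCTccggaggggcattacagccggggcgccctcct
Both matches are on the opposite strand of the gene, at position -86 for Alas2 and at position 12 for Sptb. Of the 18 red cell genes, 12 had a promoter on hand and 10 of these held a match, against 33.0% of the promoters of 27025 genes.

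Hemoglobin itself could not be read. Hba-a1, Hba-a2, Hbb-bs, Hbb-bt, Hbb-b1 and Hbb-b2 were listed at 0 in all 3 vehicle replicates, while Hbq1b, a theta globin, had 25, 99 and 84 counts. In the table, 98.6 to 100% of the exon bases of these 6 genes are shared with another listed gene. Of the 585 genes that share at least 95% of their exon bases with another entry, 93.8% had no count in vehicle, against 31.9% of the other 23836 genes. The sources used here do not say how the counting treated reads on shared bases, so a 0 for such a gene is not a measure of its expression.

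Over all genes, 798 of the 8372 with a vehicle mean of at least 10 CPM (9.53%) had a range of more than 2-fold between the vehicle replicates, and 66 had more than 4-fold. The specimen farthest from the other 2 was replicate 2 for 569 of the 798 genes, replicate 1 for 172 and replicate 3 for 57. These are 71.3, 21.6 and 7.14% of the 798 for replicates 2, 1 and 3, beside 61.6, 18.1 and 20.3% over all 8372 genes, so replicate 2 was the odd one for most genes whatever their range. The 255 genes that were high in replicate 2 had a median length of 6072 bases, and the 314 that were low in it 1443 bases, against 2986 bases over all 8372 genes. With a length trend removed from each library, 504 genes passed 2-fold and replicate 2 was the odd one for 284 of them. Without replicate 2, 156 genes had a range above 2-fold. The median SD of log2 CPM over the 8372 genes was 0.26 in vehicle and 0.57 in specimens 4 to 6. It was 0.30 in specimens 7 to 9 and 0.18 in specimens 10 to 12. These values describe 3 specimens each, over genes admitted by their vehicle level alone, so the groups are not compared on equal terms.

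The 25 most variable genes were chosen by their SD of log2 CPM, so their spread is given without a test. The widest was Vill, a villin-like actin-binding protein, with 814, 905 and 0 counts in vehicle replicates 1, 2 and 3. No other specimen of the 12 had fewer than 64 counts of Vill. With a floor of 3 counts in that library, Vill was at least 278-fold lower in replicate 3 than the mean of replicates 1 and 2. Replicate 3 was also the one vehicle specimen with no count of the Y-linked genes Ddx3y, Eif2s3y, Kdm5d and Uty, and it had 210 CPM of Xist, against 0 and 0.0408 CPM in replicates 1 and 2. Among the treated specimens, Y-linked genes were high in numbers 4, 8 and 11 only. By these genes vehicle held both sexes, and within vehicle a difference of replicate 3 and a difference of sex cannot be told apart. In number order, the treated specimens other than 4, 8 and 11 had 147, 965, 417, 64, 749 and 465 counts of Vill. A link of Vill to sex was not tested.

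Leaving Vill aside, the range of these genes was from 4.97-fold to 16.3-fold. Ryk, a receptor-like kinase that binds Wnt, had 1.07, 19.0 and 14.0 CPM in vehicle replicates 1, 2 and 3, and 6.25 to 57 CPM in the treated specimens, so replicate 1 lay below all others. Rpl29, which encodes a ribosomal protein, had 265, 136 and 36.5 CPM in vehicle, and 121 to 539 CPM in the treated specimens, so replicate 3 lay below all others. Reads of Rpl29 can be shared with near-identical pseudogene copies, which makes this gene uncertain. Epx had 407, 727 and 123 CPM in vehicle, and 51.5 to 387 CPM in the treated specimens, and Ccrl2, an atypical chemokine receptor, had 6.71, 5.51 and 34.2 CPM in vehicle, against 6.15 to 22.4 CPM in the treated specimens.

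One block of the 25 was lowest in replicate 1. For Slc4a1, Sptb, Fam46c and Pkhd1l1 in it, replicates 1 and 3 were the closest pair and replicate 2 stood high. Beside the red cell genes Alas2, Slc4a1, Sptb and Ank1, the block held Bpgm, which makes the phosphoglycerate that tunes oxygen release from hemoglobin (29.1, 176 and 136 CPM), the nonmuscle myosin gene Myh10 (6.89, 58.1 and 25.2 CPM), Fam46c, a poly(A) polymerase (15.3, 100 and 34.3 CPM), Pkhd1l1, Sh3tc2, Sh2d4a and Apol11b. Another block was low in replicate 2. It held Slfn4, a Schlafen gene of myeloid cells (492, 79.2 and 390 CPM), the receptors Clec2d (46.4, 8.09 and 60.0 CPM), Cd300e (28.6, 4.33 and 26.4 CPM) and Fcrl5 (20.0, 2.12 and 16.5 CPM), the neutrophil chemokine Cxcl2 (29.2, 5.15 and 21.0 CPM), Ms4a7, Rgs1 and Oas1g. Slfn4 in vehicle replicates 1 and 3 was above all treated specimens (29.7 to 304 CPM), while replicate 2 was near the treated median of 79.9 CPM. Oas1g, an enzyme of the antiviral RNase L pathway, had 23.3, 4.37 and 23.8 CPM in vehicle, and 1.96 to 7.43 CPM in the treated specimens, with the same pattern.

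The promoter of Oas1g is shown because interferon-stimulated genes recur below. Capitals mark matches to the interferon response motif (GAAA, any 2 bases, GAAA), searched on both strands.
Oas1g, chr5:120887564-120887863, minus strand: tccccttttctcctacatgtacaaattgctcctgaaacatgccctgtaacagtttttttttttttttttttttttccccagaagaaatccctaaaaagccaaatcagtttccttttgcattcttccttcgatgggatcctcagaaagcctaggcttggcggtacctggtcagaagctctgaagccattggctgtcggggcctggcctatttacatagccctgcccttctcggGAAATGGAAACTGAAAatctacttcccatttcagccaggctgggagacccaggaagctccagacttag
The 2 marked matches overlap and begin at positions -18 and -12. The motif was found in 11 of the 18 promoters on hand for 28 interferon-stimulated genes and in 3.99% of the promoters of 27025 genes.

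**Figure D4:**
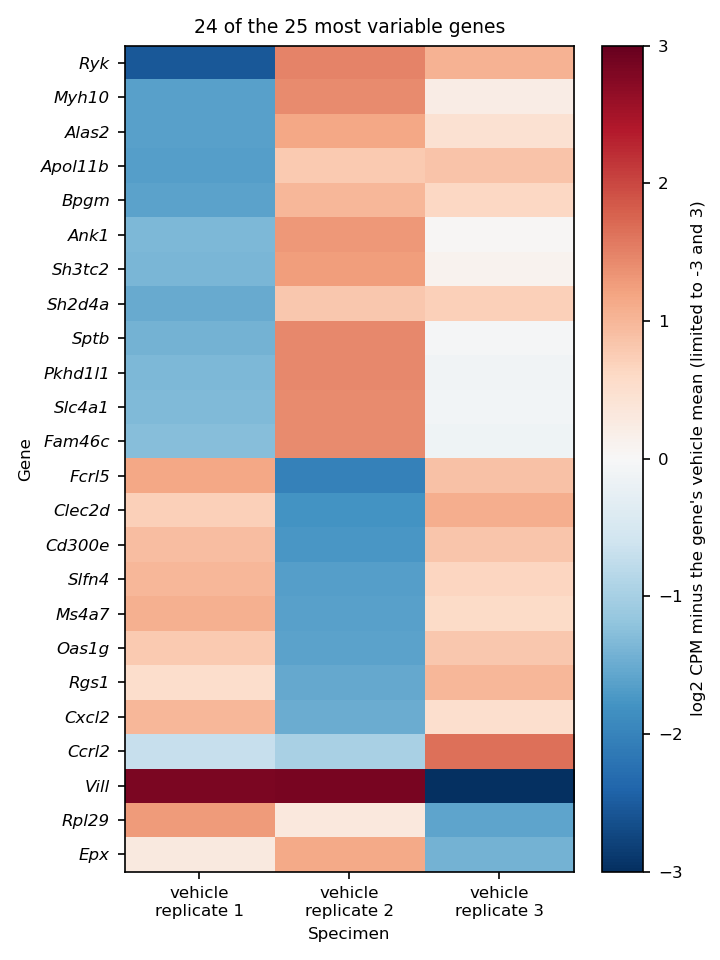
Log2 CPM minus each gene's vehicle mean (colour, limited to -3 and 3) for 24 of the 25 most variable genes (rows) in the 3 vehicle replicates (columns). Rows are grouped by the specimen farthest from the other 2, and Vill shows 2 high replicates and 1 without a count.

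Just inside the limit of the 25 were Sh2d4a and Epx, each with an SD of 1.31, and just outside were, among others, Ifi27l2a (1.29) and Igll1 (1.28). The predicted genes C130026I21Rik (36.8, 2.25 and 3.24 CPM in vehicle replicates 1, 2 and 3) and 1300017J02Rik were as variable but are kept apart. By log2 CPM, 15 of 17 immediate early genes were highest in replicate 1 (25.9% of all genes), with Egr1 at 65.8, 26 and 22.4 TPM, and 14 of 17 inflammatory cytokine genes were lowest in replicate 2 (40.6% of all genes), with Il1b at 275, 133 and 330 TPM. Of 28 interferon-stimulated genes, 20 were lowest in replicate 2 (40.6% of all genes), with Rtp4 at 73.0, 32.5 and 92.7 TPM, but Rsad2 had 32.4, 85.0 and 55.6 TPM. The part of gene length in the counts for replicate 2 was not tested. DNA replication genes were lowest in replicate 1 for 21 of 27 (28.4% of all genes), as with Mcm2 of the replicative helicase at 60.2, 170 and 78.7 TPM. At the other end, the 10 steadiest genes with at least 100 CPM included the RNA helicase gene Ddx17 (272, 275 and 273 CPM), Csk, the kinase that restrains SRC family kinases (254, 250 and 252 CPM), Tm9sf3, and the splicing factor gene Sf3b1 (468, 463 and 471 CPM).

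**Figure D5:**
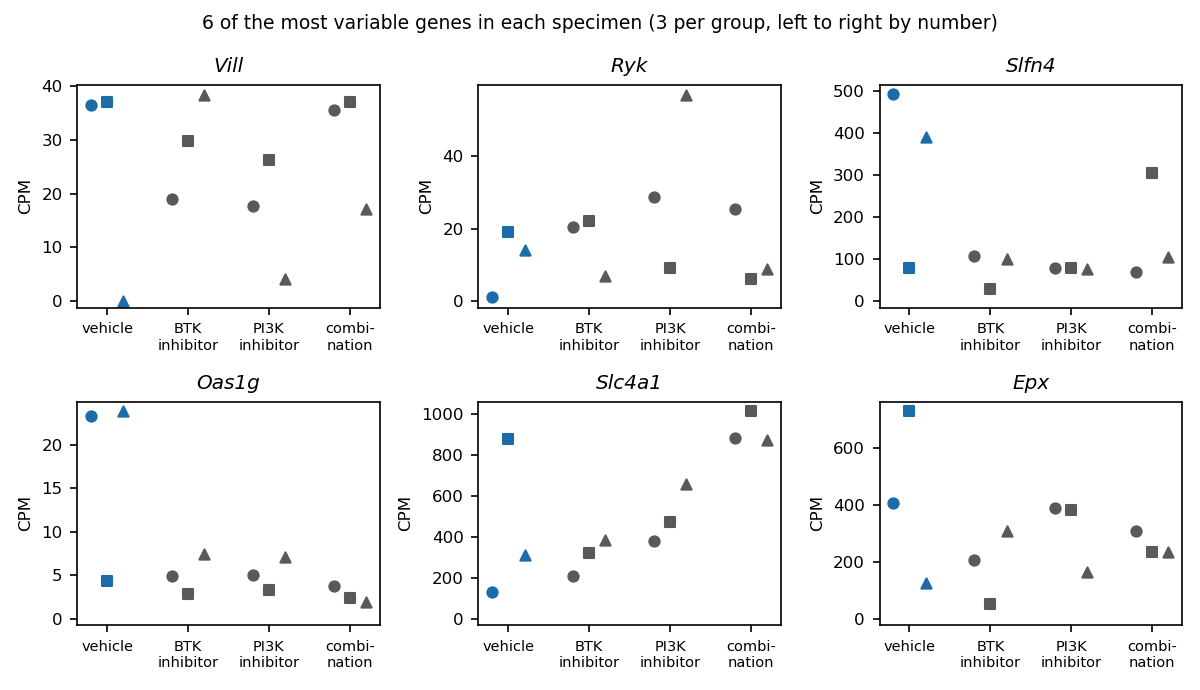
CPM (y axis, from 0) of 6 of the most variable genes in each of the 12 specimens, with the 3 vehicle replicates at the left in blue and the 3 treated groups to the right in grey. Vill is at 0 in vehicle replicate 3 alone, and Oas1g and Slfn4 are high in vehicle replicates 1 and 3.

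The mutated phosphatase gene and the genes of the drug targets were transcribed at baseline. A list of 13 genes altered in juvenile myelomonocytic leukemia, called the RAS list, holds RAS pathway genes but also Jak3, Setbp1 and Asxl1. Of it, 12 genes had at least 1 TPM in all 3 vehicle replicates. So did 5 of 5 Tec kinase genes, 8 of 9 class I PI3K subunits and 13 of 14 RAS-ERK cascade genes. Ptpn11 had 26.8, 51.6 and 27.1 TPM in vehicle replicates 1, 2 and 3; the counts do not tell mutant from normal transcripts. Btk, with the TPM given above, was the highest of the 5 Tec kinase genes, followed by Bmx (38.4, 37.2 and 37 TPM) and Tec (20.6, 21.1 and 17.9 TPM). Pik3cd, which encodes p110δ, had 64.6, 93.9 and 59.9 TPM and led the class I PI3K subunits, ahead of Pik3cg at 32.8, 62.6 and 25.4 TPM. Of the RAS genes, Nras was at 36.9, 51 and 36.1 TPM and Hras at 22.2, 25.5 and 25.7 TPM. Of the RAS-ERK cascade, Mapk3 (ERK1) had 237, 306 and 199 TPM, and the ERK-induced phosphatase gene Dusp6 had 68.2, 80.8 and 54.9 TPM. The scales differed here too: by log2 CPM all 5 Tec kinase genes were highest in replicate 1. Replicate 2 was highest for 9 of 13 genes of the RAS list, 6 of 9 PI3K subunits and 9 of 14 RAS-ERK cascade genes. Over all genes the share highest in replicate 2 was 42.9%. The length slope was steepest in replicate 2, and its part in this was not tested.

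Set against the 3 treated groups together, vehicle had no gene that passed the test. The contrast was the vehicle mean minus the mean of the 3 treated group means, and edgeR's quasi-likelihood test, adjusted after Benjamini-Hochberg, called 0 of 12742 genes (0%), with a smallest adjusted p of 0.131. At an unadjusted p of 0.05, 3176 genes (24.9%) passed. DESeq2 called 882 genes and limma voom with quality weights 3930, and without specimen 6 of the BTK inhibitor group edgeR called 2530, of which 1367 were higher and 1163 lower in vehicle. Specimen 6 carries another day in its title (30, against 24 for the other 11), and what was done on that day is not stated. Rn45s, a ribosomal RNA gene, took 0.203 to 0.328% of counts in vehicle, against 15.4% in specimen 5 of the BTK inhibitor group. The number of calls thus depended on the tool and on specimen 6, and the genes below are given as values.

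The genes with the smallest p that were higher in vehicle included interferon-stimulated ones. Oasl2, an interferon-induced oligoadenylate synthetase-like protein, had 128, 94.7 and 141 CPM in vehicle replicates 1, 2 and 3, and a lowest, median and highest of 23.0, 45.2 and 73.4 CPM in the 9 treated specimens, a log2 difference of 1.49 ± 0.28 (SE; edgeR quasi-likelihood, Benjamini-Hochberg adjusted p = 0.131). Irg1, which makes itaconate in activated myeloid cells, had 8.32, 6.90 and 10.2 CPM in vehicle, against 1.74, 2.86 and 4.96 CPM as the lowest, median and highest treated values. Slfn5, an interferon-induced Schlafen gene, had 79.3, 68.0 and 87.6 CPM in vehicle, against 20.0, 31.2 and 66.5 CPM in the treated specimens. The groups did not overlap for these 3 genes or for the metalloprotease gene Adam19, and they did for Ifit3b. Over all 12742 genes, vehicle lay above every treated specimen for 2.99%. The named genes were picked by their p from the same values, so their lack of overlap adds no support. Over the 28 interferon-stimulated genes the median log2 difference was 0.88 and 26 were positive, against a median of 0.00 and 6377 of 12742 positive over all genes, and 22 of the 28 had an unadjusted p under 0.05 beside the 24.9% of all genes. Their summed TPM was 1280, 1125 and 1544 in vehicle, and 515 to 1042 in the treated specimens. This list and those below were chosen with earlier results of these data known. The counts of their members are therefore a description, and nothing particular to a list is read from them.

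Those lower in vehicle included Sparc, a matrix protein, with 2.01, 1.80 and 1.68 CPM in vehicle replicates 1, 2 and 3, and 4.41, 7.98 and 21.2 CPM as the lowest, median and highest treated values, a log2 difference of -2.25 ± 0.37 (SE; edgeR quasi-likelihood, Benjamini-Hochberg adjusted p = 0.131). Uros, an enzyme of heme synthesis, had 21.0, 31.6 and 39.5 CPM in vehicle, against 57.6, 75.9 and 184 CPM in the treated specimens. Hebp1, a heme-binding protein, had 27.1, 45.2 and 58.2 CPM in vehicle, against 91.5, 151 and 341 CPM, and the groups did not overlap for any of these or for Ephx2 and Mgst3. Vehicle lay below every treated specimen for 2.52% of all genes. Here too the named genes were picked by their p, so their lack of overlap adds no support. The median log2 difference was -0.89 over 13 heme synthesis genes (12 negative), -0.70 over 18 red cell genes (17 negative) and -0.48 over 27 DNA replication genes (25 negative). For heme synthesis genes, mean summed TPM was 1414 in vehicle, 1412 with ACP196, 2288 with ACP319 and 2969 with both drugs. In the same order it was 2099, 1576, 2906 and 4760 for red cell genes. For DNA replication genes it was 2853, 2423, 3108 and 4380. The BTK inhibitor group was thus not above vehicle by this mean for any of these lists. The red cell median was -0.29 without vehicle replicate 1 and -1.22 without vehicle replicate 2. Ribosomal protein genes had a median of -0.90 (33 of 33 negative) and nuclear genes of oxidative phosphorylation -0.73 (25 of 25 negative), but with the length trend removed these medians were -0.30 and -0.20. 

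The remaining comparisons concern myeloid genes and the targeted pathways. Over 18 monocyte genes the median log2 difference was 0.54 and 17 were positive. Pik3cd had 215, 252 and 199 CPM in vehicle replicates 1, 2 and 3, against 93.4, 146 and 178 CPM as the lowest, median and highest treated values, and the groups did not overlap (log2 difference 0.67 ± 0.18 SE, edgeR quasi-likelihood, Benjamini-Hochberg adjusted p = 0.135). Jak3, the kinase of the common gamma chain receptors, and Pik3r5, a regulatory subunit of PI3K gamma, also did not overlap, with Jak3 at 21.5, 27.0 and 23.3 CPM in vehicle, against 5.57, 12.0 and 16.6 CPM in the treated specimens. These were the 3 of 27 genes of the RAS, Tec and PI3K lists with no overlap, all higher in vehicle, beside the 2.99% of all genes; the lists were chosen with earlier results known, so nothing particular to them is read from this. Btk had 108, 88.5 and 104 CPM in vehicle, against 83.8, 98.9 and 107 CPM, with a log2 difference of 0.05 ± 0.17 (SE). Ptpn11 had 92.6, 144 and 93.7 CPM in vehicle, against 21.4, 77.6 and 112 CPM in the treated specimens, and the groups overlapped. Over the 13 genes of the RAS list, Jak3, Setbp1 and Asxl1 included, the median was 0.53 with 10 positive, and 0.13 with the length trend removed.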

How the data were processed

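RNA was prepared with a small-input column kit and made into libraries with SMART-Seq v4 and Nextera XT, per the labels' protocols, which do not mark strand, so antisense reads were not separated. Reads were aligned with STAR and counted with featureCounts on mm10, per the submitters' processing notes, which give no versions. Raw counts per gene with gene lengths were deposited. TPM was computed from counts and length for genes of at least 200 bases. CPM used edgeR 4.0.16 with TMM scaling, and log2 CPM a prior count of 2. Genes were kept with filterByExpr (smallest count 10, total 15; 12742 genes), fitted as 4 group means over the 12 specimens and tested with glmQLFit and glmQLFTest (robust), with Benjamini-Hochberg adjustment and a threshold of 0.05, in R 4.3.3. The fit was tested on simulated data in which 200 genes were changed in vehicle. It called 37% of the 2-fold and 98% of the 4-fold changes, with 5 false calls. The simulated counts had the same spread per gene in every group and no length trend. In the data the median SD of log2 CPM was 0.18 in the combination group and 0.57 in the BTK inhibitor group. These rates therefore need not hold for the data. Most 2-fold differences were missed in the simulation, and 0 calls does not mean no difference.

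Genes named are the 25 most abundant, the 25 most and 10 least variable, the highest members of each list, the 5 per direction with the smallest p, and the RAS, Tec and PI3K lists, with predicted, Y-linked genes and Xist kept apart. Members and lists were chosen with earlier results of these data known. Epb42, Ahsp, Azu2, Ly6g and Faim3 are not analysed here, and some other members are not reported here. Alternatives were DESeq2 1.42.0, limma 3.58.1 (voom), other scalings, filters, lengths and prior counts, a length offset (natural spline, 5 degrees of freedom), and leaving out each specimen; leaving out Rn45s and trimming the lists were chosen after seeing the data. Floors cover counting error only.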

Additional observations from a re-analysis of the deposited data

How the results depend on the processing

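Between vehicle and the treated groups, edgeR called 0 genes under every other scaling, filter and offset tried and when vehicle was set against the treated specimens as 1 group; leaving out each specimen gave 0 to 2530 calls, DESeq2 882 and limma voom 3930. The cause of these differences was not tested. The log2 difference of Btk was -0.0125 without vehicle replicate 1, and up to 0.129 when another specimen was left out. The share of TPM in the 10 most abundant genes was 24.7% with genes of at least 500 bases and 36.6% with length less 200 bases. As a share of raw counts, not scaled between libraries, it was 13.3%. The share of S100a8 and S100a9 was 26.1% with length less 200 bases and 5.79% as a share of raw counts. With a minimum of 500 bases it could not be computed, as S100a8 is shorter. The mature neutrophil sum was 276798 TPM with length less 200 bases and 14512 TPM without S100a8 and S100a9. Genes above a 2-fold range numbered 1550 at a mean CPM of at least 1, 321 at 50, and 504 with the length offset, and 156 to 495 when each vehicle replicate was left out. Of the 25 most variable genes, 10 were shared at a mean CPM of at least 1, 9 at 50, and 10 to 19 when a replicate was left out. No paired analysis was possible because the groups share no replicate numbers. Vehicle has 3 specimens, and what a larger number would show was not tested.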
